A study of Mus musculus with 22 samples.

Results

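The genes described here are 9 enzymes that lengthen fatty acids or insert double bonds into them, namely the desaturases Scd1, Scd2, Fads1 and Fads2 and the elongases Elovl1, Elovl2, Elovl3, Elovl5 and Elovl7. They were taken by gene symbol from a table of 55573 genes, and all 9 were among the 14062 genes that passed the filter on low counts and were tested. Liver mRNA of 22 mice on a C57BL/6 background was sequenced, 1 library per mouse, in 4 groups. Cre mice carried wild-type Flcn alleles (FlcnWT/WT) and Albumin-Cre+/-, and liver-Flcn-/- mice (FLCN KO in the library labels) carried Flcn f/f and Albumin-Cre, so both genotypes expressed the recombinase, which the albumin promoter drives in hepatocytes and their precursors. Cre mice on chow (n = 6) and liver-Flcn-/- mice on chow (n = 5) received a diet with 10 kcal% fat, and Cre mice on MCD (n = 5) and liver-Flcn-/- mice on MCD (n = 6) a diet deficient in methionine and choline. The study describes the MCD diet also as rich in sucrose and fat, and reports that mice lost weight on it. The part of these in the diet comparisons was not separated from that of methionine and choline. The diets were started at 6 weeks of age and given for 6 weeks. The question was how the MCD diet changed the mRNA of the 9 enzymes. It was also asked whether loss of Flcn in hepatocytes altered their level on either diet.

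Fatty acids made by the liver or taken up from food are modified as coenzyme A esters in the endoplasmic reticulum. Desaturases draw electrons from cytochrome b5 and its reductase to insert a double bond, and the elongases catalyse the condensation step of a cycle that adds a 2-carbon unit. Scd enzymes turn saturated into monounsaturated fatty acids, whereas Fads2, Elovl5, Fads1 and Elovl2 act along the route that converts the essential fatty acids of the diet into long-chain polyunsaturated fatty acids such as arachidonic and docosahexaenoic acid. Many of these genes are targets of SREBP-1c and the liver X receptors in liver, and Scd1 is among the most strongly diet-responsive genes of the organ.

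On GRCm38, 5 of the genes lie on chromosome 19: Scd1 (ENSMUSG00000037071, 44394455 to 44407879, minus strand), Scd2 (ENSMUSG00000025203, 44293674 to 44306864, plus strand), Fads1 (ENSMUSG00000010663, 10182888 to 10196877, plus strand), Fads2 (ENSMUSG00000024665, 10062765 to 10101746, minus strand) and Elovl3 (ENSMUSG00000038754, 46131897 to 46135694, plus strand). Elovl1 (ENSMUSG00000006390) lies on chromosome 4 from 118428093 to 118432953 and Elovl5 (ENSMUSG00000032349) on chromosome 9 from 77917364 to 77984519, both on the plus strand. Chromosome 13 holds Elovl2 (ENSMUSG00000021364, 41182381 to 41220405, minus strand) and Elovl7 (ENSMUSG00000021696, 108214404 to 108285683, plus strand). Of the 75-base stretches of exon sequence, 3.15% of those in Scd1 and 1.78% of those in Scd2 occur also in another gene, mostly the neighbouring Scd3, Scd4 and each other, so a small part of the counts of these 2 genes is uncertain. No stretch of the remaining 7 genes was shared. Exons of Elovl1 overlap those of Cdc20 on the opposite strand by 53 bases, those of Elovl3 overlap Pitx3 by 10 bases and those of Scd2 overlap Mir5114 on the same strand by 61 bases, and the strand setting of the counting is not given in the sources used here.

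RefSeq promoters (GRCm38.p6, 250 bases before to 50 bases after the start) matched 5 of the 9 genes, Elovl1, Elovl2, Elovl5, Elovl7 and Fads2. They were searched on both strands for the core of the sterol regulatory element (TCACNCCAC), the box bound by NF-Y, the usual partner of SREBP (CCAAT), the E-box (CACGTG) and the longer E-box of the TFEB and TFE3 type (TCACGTGA, which contains the E-box), since the study is about a regulator of these factors. The table holds 7 promoters for these genes, a pair each for Elovl1 and Elovl2. The 5 below, the first of each pair among them, belong to 2 genes that fell with MCD (Elovl5, Elovl2) and 3 that rose with it in Cre livers (Elovl1, Fads2, Elovl7), and capitals mark the matches.
Elovl5, chr9:77917115-77917414, plus strand: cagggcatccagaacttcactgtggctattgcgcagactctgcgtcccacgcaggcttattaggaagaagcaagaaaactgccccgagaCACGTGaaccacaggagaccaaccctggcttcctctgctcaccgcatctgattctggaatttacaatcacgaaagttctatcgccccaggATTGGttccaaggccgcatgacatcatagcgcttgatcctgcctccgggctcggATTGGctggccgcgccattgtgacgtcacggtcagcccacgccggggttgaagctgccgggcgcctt
Elovl2, chr13:41220354-41220653, minus strand: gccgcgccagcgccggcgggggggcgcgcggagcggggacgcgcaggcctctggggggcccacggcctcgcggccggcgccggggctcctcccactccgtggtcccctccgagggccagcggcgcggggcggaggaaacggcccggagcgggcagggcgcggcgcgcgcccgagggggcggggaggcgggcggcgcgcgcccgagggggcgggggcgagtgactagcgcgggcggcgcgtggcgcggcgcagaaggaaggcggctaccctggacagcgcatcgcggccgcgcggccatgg
Elovl1, chr4:118427843-118428142, plus strand: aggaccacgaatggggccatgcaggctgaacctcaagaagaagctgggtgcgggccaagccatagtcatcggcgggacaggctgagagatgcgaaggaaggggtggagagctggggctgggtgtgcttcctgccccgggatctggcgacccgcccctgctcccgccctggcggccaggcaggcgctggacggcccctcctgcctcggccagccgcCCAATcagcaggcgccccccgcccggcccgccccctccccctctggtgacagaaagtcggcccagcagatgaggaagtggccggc
Fads2, chr19:10101454-10101753, minus strand: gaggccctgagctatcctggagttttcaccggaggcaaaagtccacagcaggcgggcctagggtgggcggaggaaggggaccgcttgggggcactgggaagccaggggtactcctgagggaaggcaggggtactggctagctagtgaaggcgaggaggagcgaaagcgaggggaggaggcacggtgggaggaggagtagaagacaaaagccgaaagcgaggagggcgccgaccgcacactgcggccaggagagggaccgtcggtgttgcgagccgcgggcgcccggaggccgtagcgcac
Elovl7, chr13:108214154-108214453, plus strand: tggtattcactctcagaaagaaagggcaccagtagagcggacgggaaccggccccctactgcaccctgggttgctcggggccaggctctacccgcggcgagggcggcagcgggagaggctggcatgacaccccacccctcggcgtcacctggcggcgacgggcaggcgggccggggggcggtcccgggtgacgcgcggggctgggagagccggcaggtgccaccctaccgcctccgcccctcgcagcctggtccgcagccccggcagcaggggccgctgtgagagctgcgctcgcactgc
The Elovl5 promoter held 1 E-box, beginning at base 90 of the window, and 2 NF-Y boxes on the opposite strand, which read ATTGG here and begin at bases 180 and 234. The Elovl1 promoter held 1 NF-Y box at base 216, and no match was found in the windows of Elovl2, Fads2 and Elovl7 or in the second window of Elovl1. Among 32851 mouse promoters of this length, 37.4% held an NF-Y box, 7.15% an E-box, 1.24% the sterol element core and 0.974% the longer E-box. A match describes letters in the window and not a bound site.

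Values are given as CPM, the count of a gene relative to the size of its library after TMM scaling, and changes as log2 fold changes with their standard error (SE) from edgeR, called when the adjusted p was under 0.05. The libraries held between 13751347 and 21144388 counted reads. Flcn itself was 31.6 ± 4.90 CPM (SD, n = 6) in Cre and 20.4 ± 2.78 CPM (SD, n = 5) in liver-Flcn-/- livers on chow, a log2 fold change of −0.63 (SE 0.17, adjusted p = 0.025). On MCD the 5 Cre livers averaged 29.1 ± 8.41 CPM (SD) and the 6 liver-Flcn-/- livers 26.0 ± 5.12 CPM (SD), and that difference did not pass the test (−0.16, SE 0.17, adjusted p = 0.57). A count over the whole gene includes mRNA of non-hepatocytes and any transcript that lacks the deleted exon, so it is a weak check of the genotype labels, and on MCD it does not separate the genotypes.

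Some libraries stood apart. The labels give no sex, and Xist, which is transcribed from the inactive X chromosome of females, divided the livers into 10 with at most 1.27 CPM and 12 with 222 to 417 CPM. The 10 Xist-low livers held 136 to 236 CPM of the Y-linked genes Ddx3y, Kdm5d, Eif2s3y and Uty together. Each group mixed both kinds, with 3 low and 3 high in Cre on chow, 2 and 3 in liver-Flcn-/- on chow, 2 and 3 in Cre on MCD, and 3 and 3 in liver-Flcn-/- on MCD. In 5 of the Xist-high livers the Y-linked genes were also above 5 CPM, from 10.9 to 27.8 CPM (Cre Chow 2, FLCN KO Chow 2, FLCN KO Chow 4, Cre MCD 1 and FLCN KO MCD 3). The 5 Xist-low livers on chow were also the 5 chow libraries in which the library statistics of the study put the uniquely mapped share low, so on chow these properties cannot be told apart. Cre MCD 3 was exceptional in another way, with 1816 CPM over 6 skeletal muscle markers, of which Acta1 was the most abundant (598 CPM), against 0.767 to 92.2 CPM in the other Cre livers on MCD. It also held 6.27 CPM over 5 adipocyte markers, led by Cfd (3.60 CPM), against at most 0.339 CPM in the other Cre livers on MCD. Clock genes in Cre MCD 3 summed to 714 CPM against 328 to 494 CPM in the other Cre livers on MCD. Per2 was 42.5 against 7.57 to 10.2 CPM and Arntl 2.72 against 6.15 to 20.4 CPM, whereas Nr1d1 (84.6 CPM) lay within the range of the others. Its lipogenic enzymes summed to 2050 CPM against 1063 to 1287 CPM. The part of any of these in its Scd1 value was not tested. The diet comparisons and the genotype comparisons share groups, so they are not independent of one another.

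On MCD the make-up of the desaturase and elongase mRNA changed from one dominated by Scd1 to one dominated by Fads2, in both genotypes. With MCD, 3 of the 9 genes rose in Cre livers (Fads2, Elovl1, Elovl7), 5 fell (Scd1, Fads1, Elovl2, Elovl3, Elovl5) and Scd2 was not called. In liver-Flcn-/- livers 1 rose (Elovl7), 6 fell (Scd1, Scd2, Fads1, Elovl2, Elovl3, Elovl5), and Fads2 and Elovl1 were not called. Across all tested genes 29.3% rose and 28.2% fell in Cre livers, and 22.5% rose and 22.5% fell in liver-Flcn-/- livers. The median log2 fold change of the 9 genes was −0.35 in Cre and −1.20 in liver-Flcn-/- livers, against 0.01 and 0.00 over all tested genes. These medians are the values of Fads1 and of Elovl2. They differ because Scd2 lay above the median in Cre and below it in liver-Flcn-/- livers. Scd1, Elovl2, Elovl3 and Elovl5 fell less in liver-Flcn-/- than in Cre livers, and none of these differences was called.

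**Figure D1:**
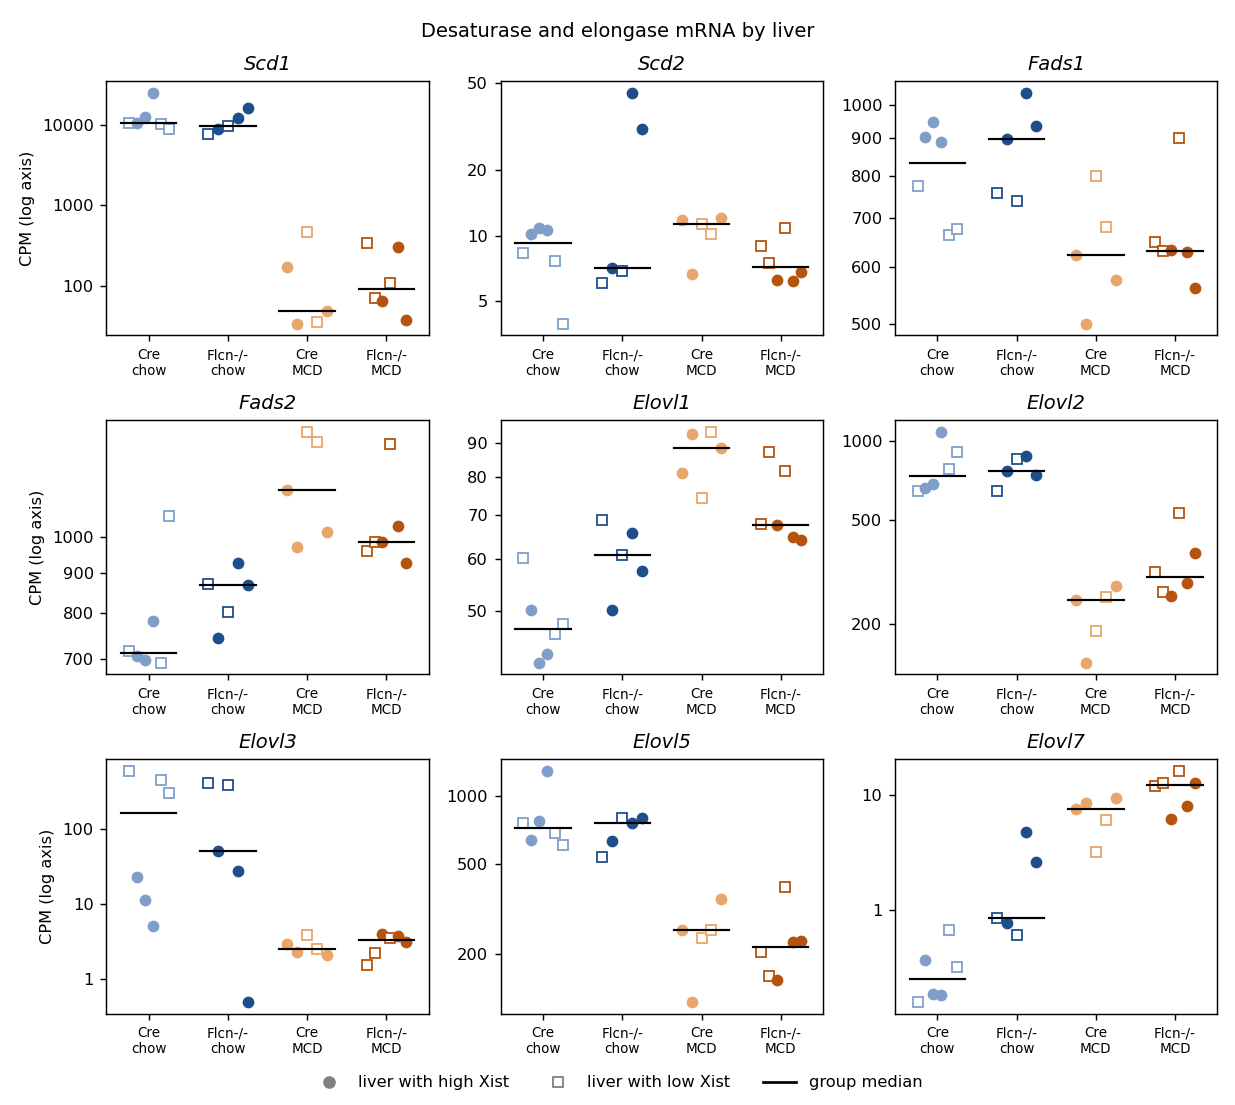
CPM of the 9 genes on a log axis, 1 symbol per liver, by genotype and diet (filled circles, livers with high Xist; open squares, livers with low Xist; lines, group medians). Scd1, Elovl2 and Elovl5 were lower in every MCD liver than in every chow liver, Elovl7 was higher in every MCD than in every chow liver of the same genotype, and Elovl3 on chow fell into separate levels by Xist.

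Per length of transcript (CPM per kb of exon), Scd1 led on chow with 2637 ± 1218 CPM per kb (SD, n = 6) in Cre and 2210 ± 667 CPM per kb (SD, n = 5) in liver-Flcn-/- livers. In Cre livers on chow it was followed by Fads2 (235 ± 43.8 CPM per kb), Elovl5 (225 ± 71.8 CPM per kb), Elovl2 (201 ± 43.8 CPM per kb), Fads1 (168 ± 25.5 CPM per kb) and Elovl3 (119 ± 132 CPM per kb), and the ranges of mean ± SD of neighbours among these 5 overlapped. The place of Elovl3 is that of a mean over separate levels, since the Xist-low Cre livers had 306, 231 and 156 CPM per kb, of which the first 2 lie within the range of Fads2 (209.7 to 322 CPM per kb), and the Xist-high livers 11.7, 5.68 and 2.58 CPM per kb, below every value of Elovl1. Elovl1 (17.7 ± 2.45 CPM per kb), Scd2 (1.57 ± 0.479 CPM per kb) and Elovl7 (0.0783 ± 0.0488 CPM per kb) were lower in the mean. On MCD the order in Cre livers was Fads2 (353 ± 53.4 CPM per kb), Fads1 (132 ± 23.4 CPM per kb), Elovl5 (69.1 ± 22.9 CPM per kb), Elovl2 (56.1 ± 14.1 CPM per kb), Elovl1 (31.6 ± 3.05 CPM per kb) and Scd1 (30.9 ± 37.7 CPM per kb), with Elovl5 and Elovl2, and Elovl1 and Scd1, within their SDs of each other. Without Cre MCD 3, Scd1 averaged 14.9 ± 13.6 CPM per kb (SD, n = 4) and Elovl1 32.7 ± 2.15 CPM per kb. Scd2, Elovl7 and Elovl3 were at 1.37 to 1.90 CPM per kb and their ranges of mean ± SD overlapped. The order in liver-Flcn-/- livers on MCD began likewise with Fads2 (314 ± 43.1 CPM per kb) and Fads1 (139 ± 24.8 CPM per kb) and went on with Elovl2 (85.4 ± 26.1 CPM per kb) and Elovl5 (64.8 ± 25.1 CPM per kb), which overlapped. The level summed over the 9 genes was 3605 ± 1265 and 3159 ± 659 CPM per kb on chow, and 678 ± 112 and 667 ± 117 CPM per kb on MCD, in Cre and liver-Flcn-/- livers respectively.

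**Figure D2:**
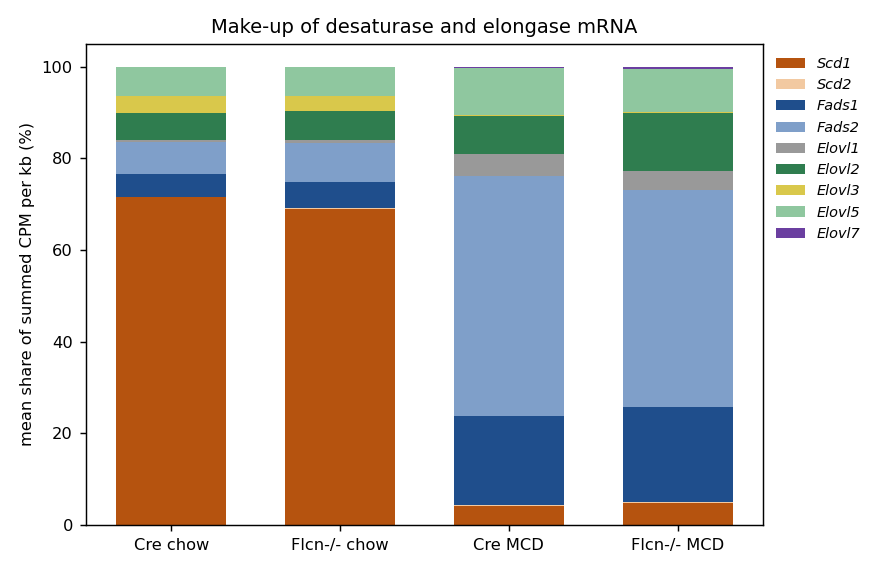
Mean share of each gene in the summed CPM per kb of the 9 genes, in percent, for the 4 groups. Scd1 made up 71.5% in Cre and 69.0% in liver-Flcn-/- livers on chow and 4.12% (2.26% without Cre MCD 3) and 4.70% on MCD, where Fads2 made up 52.3% and 47.4%.

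Scd1, the main stearoyl-CoA desaturase of the liver and the enzyme that makes oleate, showed the largest loss of mRNA among the desaturases. On chow the Cre livers had 8918 CPM at the lowest, 10445 CPM at the median and 24834 CPM at the highest, and the 5 liver-Flcn-/- livers had 7732, 8760, 9680, 11924 and 15952 CPM. On MCD the 5 Cre livers had 172, 34.1, 464, 36.2 and 48.7 CPM, and the liver-Flcn-/- livers ranged from 38.0 to 337 CPM with a median of 90.8 CPM. No MCD liver overlapped any chow liver. The fall was 85.4-fold in Cre livers (log2 fold change −6.42, SE 0.80, adjusted p = 8.6e-07) and 70.0-fold in liver-Flcn-/- livers (−6.13, SE 0.74, adjusted p = 9.7e-07). In Cre livers the log2 fold change was −5.30 within the Xist-low (SE 1.15, adjusted p = 0.0012) and −7.55 within the Xist-high livers (SE 1.06, adjusted p = 1.2e-05). The highest value on MCD, 464 CPM, belonged to Cre MCD 3, and without this library the log2 fold change in Cre livers was −7.47 (SE 0.77, adjusted p = 8.5e-08). Genotype did not separate Scd1 at this precision, with a log2 fold change between genotypes of −0.26 on chow (SE 0.61, adjusted p = 0.85) and 0.03 on MCD (SE 0.61, adjusted p = 0.98). Without Cre MCD 3 the value on MCD was 1.08 (SE 0.56, adjusted p = 0.20).

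Scd2, the isoform best known from brain and from the developing liver, was low and behaved otherwise. Cre livers on chow ranged from 3.93 to 10.8 CPM (median 9.24 CPM), and the liver-Flcn-/- livers on chow had 6.06, 7.06, 6.91, 45.3 and 30.8 CPM. On MCD the Cre livers had 11.8, 6.63, 11.3, 10.2 and 12.0 CPM, and the liver-Flcn-/- livers ranged from 6.20 to 10.8 CPM (median 7.15 CPM). FLCN KO Chow 4 and 5, with 822 and 573 counts, were above every other liver, and the remaining 20 livers spanned one narrow range. The fall with MCD that was called in liver-Flcn-/- livers (log2 fold change −1.32, SE 0.41, adjusted p = 0.012) rests on these livers, since it was −0.72 without FLCN KO Chow 4 (adjusted p = 0.12) and 0.48 within the Xist-low livers (SE 0.48, adjusted p = 0.49), which hold neither of them, but −2.11 within the Xist-high livers (SE 0.42, adjusted p = 6.8e-04), and limma-voom did not call it (−0.88, adjusted p = 0.098). In Cre livers Scd2 differed by 0.27 with MCD (SE 0.42, adjusted p = 0.60). With only the poorly mapping libraries on chow this difference was 0.64 and was called (SE 0.25, adjusted p = 0.046). The same 2 livers had the highest Elovl7 on chow, and their stellate cell markers summed to 496 and 495 CPM against 315 to 428 CPM in the other 3 liver-Flcn-/- livers on chow, led by Dcn in each. Cre Chow 4 held 514 CPM of these markers with Scd2 at 10.6 CPM. Lipogenic enzymes, led by Fasn, summed to 5095 and 5564 CPM in the 2 livers against 2681 to 2982 CPM in the other 3, and Elovl6 was 401 and 306 CPM against 80.6 to 121 CPM. In Cre livers on chow the lipogenic sum was 3064 to 7976 CPM and Elovl6 135 to 479 CPM. Cholangiocyte markers, of which Spp1 was the most abundant, summed to 116 and 202 CPM in them and to 96.1, 80.0 and 126 CPM in the other 3. FLCN KO Chow 4 is among the libraries with both Xist and Y-linked counts. The part of any of these in the Scd2 values was not tested.

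Fads2, which catalyses the entry step of polyunsaturated fatty acid synthesis, rose with MCD in Cre livers. Its values there were 1149, 971, 1362, 1320 and 1014 CPM on MCD against a range of 691 to 1062 CPM (median 711 CPM) on chow, where Cre Chow 6 held the highest value and was the 1 chow liver to overlap the MCD livers. That library also stood apart in clock genes, with Dbp at 195 CPM against 1.46 to 49.1 CPM in the other Cre livers on chow, Arntl at 1.12 against 14.5 to 36.5 CPM and Npas2 at 0.241 against 2.91 to 15.3 CPM. Fads2 rose by 0.59 on the log2 scale (SE 0.12, adjusted p = 3.9e-04) and by 0.69 without Cre Chow 6 (SE 0.11, adjusted p = 2.1e-05). In liver-Flcn-/- livers Fads2 was 872, 743, 802, 928 and 868 CPM on chow and 926 to 1315 CPM (median 986 CPM) on MCD, a log2 fold change of 0.30 that did not pass (SE 0.12, adjusted p = 0.057). It did pass in DESeq2 (adjusted p = 0.037), in a fit of only those groups (adjusted p = 0.036), with a term for mapping (0.33, adjusted p = 0.044) and without any one of Cre Chow 6, Cre MCD 2 or FLCN KO MCD 6 (adjusted p = 0.026 to 0.049). The difference between the responses, −0.29 (SE 0.17, adjusted p = 0.33), was not called either.

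Fads1, the desaturase that completes arachidonic acid, fell slightly. In Cre livers it ranged from 664 to 948 CPM (median 832 CPM) on chow and was 622, 501, 799, 679 and 576 CPM on MCD. In liver-Flcn-/- livers it was 758, 899, 739, 1040 and 936 CPM on chow and 561 to 902 CPM (median 631 CPM) on MCD. The log2 fold changes were −0.35 (SE 0.14, adjusted p = 0.036) and −0.39 (SE 0.14, adjusted p = 0.025), and both sets of livers overlapped. The fall was seen in the Xist-high livers, at −0.69 in Cre (SE 0.13, adjusted p = 3.2e-04) and −0.66 in liver-Flcn-/- livers (SE 0.13, adjusted p = 8.3e-04). In the Xist-low livers the values were 0.07 (SE 0.15, adjusted p = 0.74) and −0.04 (SE 0.15, adjusted p = 0.86). Xist-low Cre livers held 705 ± 60.4 CPM (SD, n = 3) on chow and 739 ± 84.7 CPM (SD, n = 2) on MCD. Xist-high Cre livers held 914 ± 29.7 CPM on chow and 566 ± 61.3 CPM on MCD (SD, n = 3 each). The call in Cre livers was lost without any one of Cre Chow 2, 3 or 4 or Cre MCD 1, 2 or 5 (−0.34 to −0.27, adjusted p up to 0.11). In liver-Flcn-/- livers the call was lost without any one of FLCN KO Chow 4 or 5 or FLCN KO MCD 6 (−0.37 to −0.32, adjusted p up to 0.080). Without the filter on low counts the values were −0.33 and −0.39, and neither was called (adjusted p = 0.092 and 0.054). With only the poorly mapping libraries on chow the values were −0.15 and −0.17 (adjusted p = 0.43 and 0.51), and without the 5 livers holding both Xist and Y-linked counts −0.31 and −0.27 (adjusted p = 0.13 and 0.28). In a fit of only the Cre groups the value was −0.35 and the call was lost as well (adjusted p = 0.055). The difference between Xist-high and Xist-low livers itself was not tested, and on chow it coincides with the mapping difference named above.

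**Figure D3:**
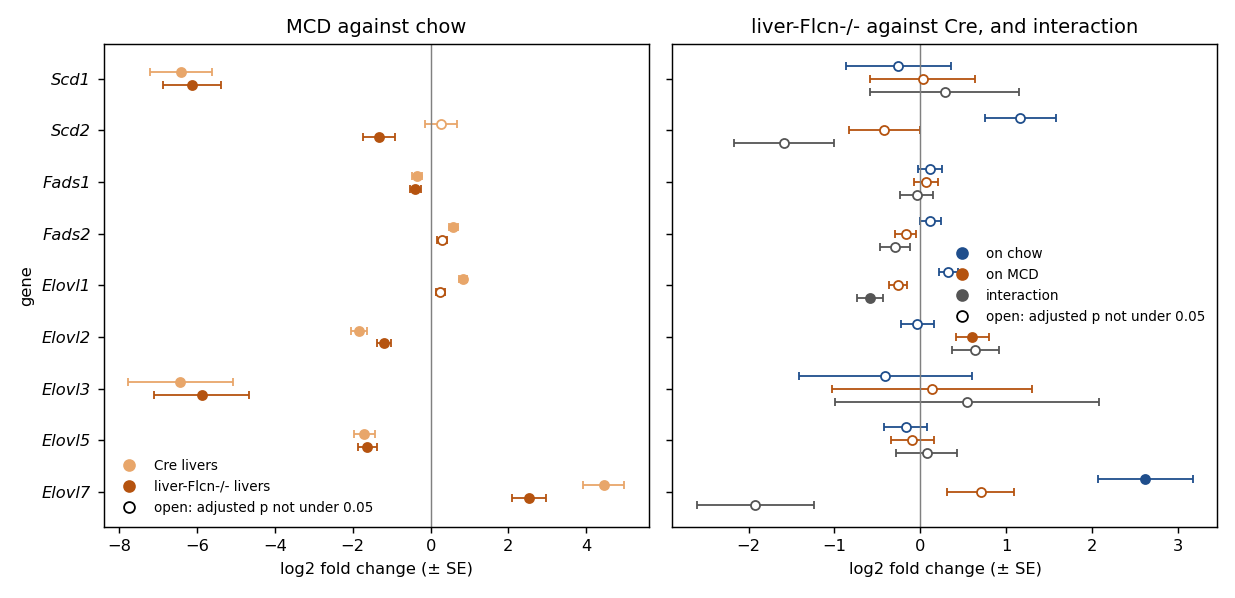
Log2 fold changes with SE from edgeR for the 9 genes: MCD against chow within each genotype (left), and liver-Flcn-/- against Cre on each diet with the interaction (right); filled symbols have an adjusted p under 0.05. Scd1 and Elovl3 lie near −6 in both genotypes on the left, and on the right the filled symbols are Elovl7 on chow, Elovl2 on MCD and the Elovl1 interaction.

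Among the elongases of polyunsaturated fatty acids, Elovl5 and Elovl2 fell together. Elovl5, which acts between Fads2 and Fads1, ranged from 609 to 1291 CPM (median 720 CPM) in Cre livers on chow and was 255, 123, 236, 255 and 349 CPM on MCD. The liver-Flcn-/- livers had 536, 631, 798, 756 and 798 CPM on chow and 154 to 396 CPM (median 215 CPM) on MCD. The falls were 3.25-fold (log2 fold change −1.70, SE 0.26, adjusted p = 1.1e-05) and 3.08-fold (−1.62, SE 0.25, adjusted p = 2.3e-05), with no overlap between diets. Genotype differences of Elovl5 were −0.17 on chow (SE 0.25, adjusted p = 0.73) and −0.09 on MCD (SE 0.25, adjusted p = 0.85). Across the 22 livers the log2 CPM of Elovl5 and Elovl2 had a Pearson r of 0.93, and 0.85 after group means were removed, the highest value of any pair of the 9 genes in both cases. The livers share groups and sequencing, so these values are descriptions.

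Elovl2, which makes the longest polyunsaturated precursors of docosahexaenoic acid, was 644 to 1086 CPM (median 735 CPM) in Cre livers on chow, and 644, 766, 853, 879 and 741 CPM in liver-Flcn-/- livers on chow. On MCD the Cre livers had 248, 142, 188, 253 and 280 CPM and the liver-Flcn-/- livers 256 to 531 CPM (median 303 CPM). The fall with MCD was 3.58-fold in Cre livers (log2 fold change −1.84, SE 0.20, adjusted p = 1.4e-07) and 2.29-fold in liver-Flcn-/- livers (−1.20, SE 0.19, adjusted p = 3.4e-05). On MCD Elovl2 was 1.52-fold higher in liver-Flcn-/- livers (log2 fold change 0.61, SE 0.19, adjusted p = 0.035), although the livers overlapped and Cre MCD 2 (142 CPM) and FLCN KO MCD 4 (531 CPM) lay at the extremes. The call was lost without Cre MCD 2 (0.48, adjusted p = 0.087), Cre MCD 3 (0.55, adjusted p = 0.073), FLCN KO MCD 4 (0.43, adjusted p = 0.098) or FLCN KO MCD 6 (0.58, adjusted p = 0.070), and in a fit of the MCD groups alone (0.61, adjusted p = 0.073). Within Xist-low livers the difference was 0.75 (SE 0.31, adjusted p = 0.14) and within Xist-high livers 0.45 (SE 0.27, adjusted p = 0.30). The interaction of genotype and diet was 0.64 (SE 0.27, adjusted p = 0.14).

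The elongases of saturated and monounsaturated fatty acids went different ways. Elovl3, which makes very long saturated and monounsaturated chains and is known in mouse liver as a gene higher in males, was spread over more than 3 orders of magnitude on chow. The Xist-low Cre livers had 604, 456 and 308 CPM and the Xist-low liver-Flcn-/- livers 415 and 393 CPM, whereas the Xist-high livers had 23.1, 11.2 and 5.10 CPM and 50.7, 27.6 and 0.484 CPM. On MCD this separation was absent, and the 11 livers ranged from 1.52 to 4.00 CPM. The fall was 86.1-fold in Cre (log2 fold change −6.43, SE 1.34, adjusted p = 3.5e-04) and 59.1-fold in liver-Flcn-/- livers (−5.89, SE 1.22, adjusted p = 4.8e-04). In limma-voom the values were −4.68 (SE 2.14) and −3.78 (SE 2.02), and neither was called (adjusted p = 0.067 and 0.13). Without FLCN KO Chow 1 the edgeR value in liver-Flcn-/- livers was −5.30 (SE 1.21, adjusted p = 0.0014). Within the Xist-low livers the values were −7.17 (SE 1.09, adjusted p = 4.7e-05) and −7.37 (SE 0.94, adjusted p = 1.1e-05). Within the Xist-high livers they were −2.43 (SE 0.81, adjusted p = 0.018) and −2.87 (SE 0.79, adjusted p = 0.0076). FLCN KO Chow 5, with 9 counts, was below every MCD liver, so the Xist-high livers of the 2 diets overlapped in liver-Flcn-/- mice.

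In the 6 Xist-high chow livers Elovl3 was ordered as the Y-linked genes were. As a percentage of the mean of the Xist-low chow livers (435 CPM for Elovl3 and 195 CPM for the Y-linked genes), Elovl3 and the Y-linked genes stood at 11.7 and 13.7% in FLCN KO Chow 2, at 6.35 and 6.05% in FLCN KO Chow 4, and at 5.31 and 5.61% in Cre Chow 2. The values were 2.58 and 1.62% in Cre Chow 3, 1.17 and 0.468% in Cre Chow 4, and 0.111 and 0.111% in FLCN KO Chow 5. The Y-linked genes are not expected from female tissue, and their part in the Elovl3 values was not tested. On MCD Elovl3 was 1.52 to 3.84 CPM in the 5 Xist-low livers and 2.05 to 4.00 CPM in the 6 Xist-high livers, which overlapped. Of 8 other genes known as higher in male liver, 6 fell with MCD in Cre and 7 in liver-Flcn-/- livers, with a median log2 fold change of −4.34 and −3.84. These values pool both kinds of liver. In Xist-low livers the 8 genes summed to 7014 to 11997 CPM in Cre and 9325 and 9524 CPM in liver-Flcn-/- mice on chow. On MCD they summed to 769 and 1068 CPM, and to 497 to 616 CPM. In Xist-high livers the sums were 481 to 962 and 449 to 1704 CPM on chow. On MCD these sums were 646 to 682 and 456 to 534 CPM, within the ranges on chow. Over both kinds of liver together, Slco1a1 fell by 6.88 in Cre (SE 1.27, adjusted p = 9.5e-05) and 8.28 in liver-Flcn-/- livers (SE 1.29, adjusted p = 2.5e-05) on the log2 scale. Hsd3b5 fell by 7.67 (SE 1.44, adjusted p = 1.2e-04) and 8.03 (SE 1.45, adjusted p = 1.3e-04).

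**Figure D4:**
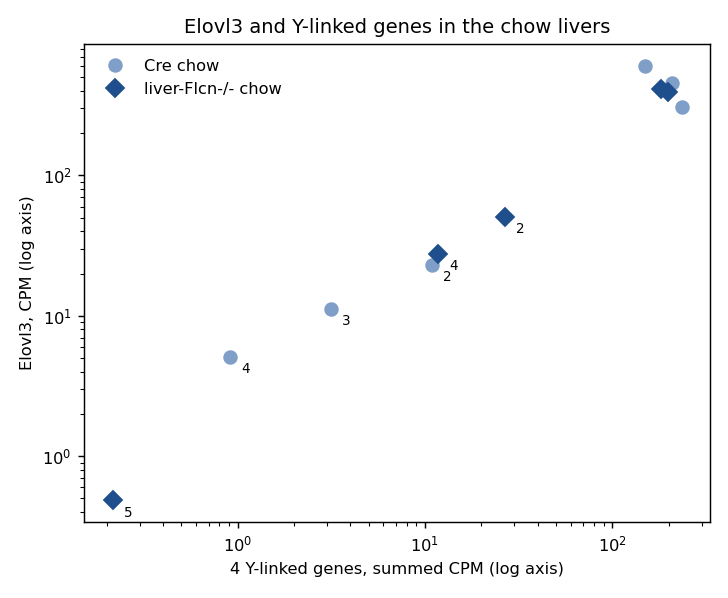
Elovl3 CPM against the summed CPM of 4 Y-linked genes in the 11 chow livers, both on log axes (circles, Cre; diamonds, liver-Flcn-/-; numbers, library numbers of the 6 Xist-high livers). The 5 Xist-low livers lie at the upper right with 308 to 604 CPM of Elovl3, and the Xist-high livers run from 0.484 CPM in FLCN KO Chow 5 to 50.7 CPM in FLCN KO Chow 2.

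Elovl7, an elongase of saturated long chains with little expression in normal liver, rose the most. Cre livers on chow had 2 to 10 counts each, or 0.158 to 0.676 CPM, and on MCD 68 to 200 counts, or 7.57, 8.61, 3.18, 6.15 and 9.52 CPM. Liver-Flcn-/- livers had 0.855, 0.771, 0.604, 4.79 and 2.64 CPM on chow and 6.21 to 16.4 CPM (median 12.4 CPM) on MCD. Within each genotype every MCD liver was above every chow liver. The rise was 21.8-fold in Cre (log2 fold change 4.45, SE 0.52, adjusted p = 3.3e-07) and 5.77-fold in liver-Flcn-/- livers (2.53, SE 0.43, adjusted p = 7.1e-05), and the 2 responses differed by −1.92 (SE 0.68), short of the threshold (adjusted p = 0.078). That difference was −1.26 without FLCN KO Chow 4 (adjusted p = 0.23), and it was called without Cre MCD 3 (−2.11, adjusted p = 0.046) or FLCN KO Chow 3 (−2.14, adjusted p = 0.045) and without the 5 poorly mapping chow libraries (−2.75, adjusted p = 0.049). In Cre livers the rise was 3.53 within the Xist-low (SE 0.60, adjusted p = 1.4e-04) and 5.09 within the Xist-high livers (SE 0.58, adjusted p = 1.1e-06). In liver-Flcn-/- livers the rise was 3.19 without FLCN KO Chow 4 (SE 0.42, adjusted p = 4.8e-06), 4.24 within the Xist-low livers (SE 0.59, adjusted p = 3.1e-05) and 1.72 within the Xist-high livers (SE 0.41, adjusted p = 0.0031). DESeq2 called the difference between the responses (−1.94, adjusted p = 0.030), and it was −3.37 within the Xist-high livers (SE 0.74, adjusted p = 0.012) and 0.71 within the Xist-low livers (SE 0.94, adjusted p = 0.80).

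Elovl1, which elongates saturated and monounsaturated chains for sphingolipids, ranged from 41.7 to 60.3 CPM (median 47.1 CPM) in Cre livers on chow and was 81.0, 93.0, 74.3, 93.6 and 88.5 CPM on MCD. It rose 1.78-fold there with no overlap (log2 fold change 0.84, SE 0.11, adjusted p = 1.1e-06). The liver-Flcn-/- livers had 68.8, 50.3, 60.9, 65.8 and 57.5 CPM on chow and 64.2 to 87.2 CPM (median 67.7 CPM) on MCD, which overlapped (0.25, SE 0.11, adjusted p = 0.058). This rise was called by DESeq2 (adjusted p = 0.048), with a term for mapping (0.33, adjusted p = 0.018), without the 5 poorly mapping chow libraries (0.32, adjusted p = 0.040), and without any one of Cre Chow 1, FLCN KO Chow 1 or FLCN KO MCD 5 or 6 (adjusted p = 0.035 to 0.046). The response of Elovl1 to MCD was smaller in liver-Flcn-/- livers by 0.58 on the log2 scale (interaction −0.58, SE 0.15, adjusted p = 0.019), and this was the 1 interaction called among the 9 genes, where 3.29% of all tested genes had a higher and 5.54% a lower response. Leaving out any single library kept the call (adjusted p = 0.0085 to 0.041). It was lost without the 5 livers holding both Xist and Y-linked counts (−0.64, adjusted p = 0.11), within the Xist-low livers (−0.42, adjusted p = 0.36) and with only the poorly mapping libraries on chow (−0.59, adjusted p = 0.13), and it held within the Xist-high livers (−0.78, adjusted p = 0.018). The replicate number as a block also ended the call (−0.56, adjusted p = 0.055), though these numbers did not pair the livers. Of 9 stellate cell markers, MCD raised 6 and lowered 1 in Cre livers, 1 rose and 2 fell in liver-Flcn-/- livers, and 3 had a lower response by the interaction. Their summed level on MCD was 648, 453, 852, 597 and 636 CPM in Cre livers and 404 to 498 CPM in liver-Flcn-/- livers, with Dcn the most abundant. The 852 CPM belonged to Cre MCD 3, and without it 5 stellate markers rose in Cre livers and 2 had a lower response. Of 9 macrophage markers 4 rose and 2 fell in Cre livers, 1 rose and 3 fell in liver-Flcn-/- livers, and 3 had a lower response by the interaction, as had 1 of 5 cholangiocyte markers. The macrophage markers, led by Cd5l, summed to 423 to 721 CPM in Cre and 270 to 616 CPM in liver-Flcn-/- livers on MCD. In bulk liver, fewer cells of a type and less RNA per cell cannot be told apart, and the part of any of these cells in the Elovl1 values was not tested.

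Between genotypes on the same diet 2 differences were called among the 9 genes, 1 on each diet. On chow 1 gene was higher in liver-Flcn-/- livers and 0 were lower, where 5.52% of tested genes were higher and 3.10% lower, and at an unadjusted p under 0.05 Scd2 and Elovl1 differed as well. Scd2 was 1.17 higher there (SE 0.41, adjusted p = 0.084), 0.57 without FLCN KO Chow 4 (adjusted p = 0.44) and −0.03 within the Xist-low livers (adjusted p = 0.99), and it was called without any one of FLCN KO Chow 1, 2 or 3 (1.38 to 1.39, adjusted p = 0.033 to 0.041). Its interaction was −1.58 (SE 0.58, adjusted p = 0.092), called without FLCN KO Chow 1 (−1.81, adjusted p = 0.043) and within the Xist-high livers (−2.05, adjusted p = 0.039), and −0.99 without FLCN KO Chow 4 (adjusted p = 0.27). On MCD 1 was higher, Elovl2, and 0 were lower, where 8.06% of tested genes were higher and 8.53% lower. The gene called on chow was Elovl7, 6.17-fold higher (log2 fold change 2.63, SE 0.55, adjusted p = 0.0037). Of the liver-Flcn-/- livers, 1 overlapped the Cre livers, and FLCN KO Chow 4 and 5 held 87 and 49 counts against 9 to 13 in the other 3. Without FLCN KO Chow 4 the difference was 1.97 (SE 0.50, adjusted p = 0.024). Within the Xist-high livers it was 3.46 (SE 0.62, adjusted p = 0.0025), within the Xist-low livers 0.85 (SE 0.80, adjusted p = 0.66), and limma-voom did not call it (2.27, adjusted p = 0.092). On MCD Elovl7 was 0.71 higher (SE 0.39, adjusted p = 0.24), with 1.56 within the Xist-low livers (SE 0.45, adjusted p = 0.035) and 0.09 within the Xist-high livers (SE 0.38, adjusted p = 0.92). Elovl1 was 0.33 higher on chow (SE 0.11, adjusted p = 0.057) and 0.25 lower on MCD (−0.25, SE 0.11, adjusted p = 0.11), neither of which passed, although DESeq2 called the former (adjusted p = 0.037), as did fits with sex as a covariate (adjusted p = 0.030) or a term for mapping (0.031) and those without any one of Cre Chow 1, Cre MCD 3 or 5, FLCN KO Chow 2 or FLCN KO MCD 2 (adjusted p = 0.018 to 0.047). The latter was called within the Xist-high livers (−0.42, adjusted p = 0.043) and without FLCN KO MCD 2 (−0.32, adjusted p = 0.043).

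The other desaturases and elongases, and the enzymes that work beside them, changed with MCD as unevenly. Of 8 other family members 4 were tested, since Scd3, Scd4, Elovl4 and Degs2 were too low, and 1 rose and 1 fell in each genotype. Elovl6, which lengthens palmitate to stearate, fell by 1.77 in Cre (SE 0.39, adjusted p = 5.1e-04) and by 2.21 in liver-Flcn-/- livers (SE 0.38, adjusted p = 6.7e-05) on the log2 scale. Fads3 rose in Cre livers (2.13, SE 0.37, adjusted p = 4.4e-05), with 1.60 to 3.40 CPM on chow and 5.20 to 23.1 CPM on MCD. In liver-Flcn-/- livers Fads3 was not called, at 2.15 to 8.37 CPM on chow and 4.43 to 8.90 CPM on MCD. Degs1, the dihydroceramide desaturase, rose in liver-Flcn-/- livers (0.32, SE 0.11, adjusted p = 0.022). In Cre livers Degs1 was not called, at 82.2 to 104 CPM on chow and 70.2 to 115 CPM on MCD. Of 6 tested partners of the elongation cycle 2 rose and 3 fell in Cre livers, and 2 rose and 1 fell in liver-Flcn-/- livers. Without Cre MCD 3, 1 rose and 2 fell in Cre livers, and 2 rose and 2 fell in liver-Flcn-/- livers. Tecr, the reductase that completes each cycle, fell by 0.88 (SE 0.09, adjusted p = 3.1e-08) and 0.63 (SE 0.08, adjusted p = 4.0e-06), while the dehydratase gene Hacd2 rose by 0.44 (SE 0.08, adjusted p = 5.0e-05) and 0.23 (SE 0.08, adjusted p = 0.017). Between genotypes on MCD, 1 of the 6 partners was higher and 3 were lower in liver-Flcn-/- livers, with or without Cre MCD 3. Of all tested genes 8.06% were higher and 8.53% lower in that comparison. On chow 0 partners were called, and 1 was lower without Cre MCD 3. By the interaction 1 had a higher response, and 0 without Cre MCD 3. Among 5 tested electron donors of the desaturases, 1 rose and 3 fell with MCD in each genotype. Cyb5r3, the cytochrome b5 reductase, fell by 1.34 (SE 0.10, adjusted p = 5.0e-10) and 1.38 (SE 0.10, adjusted p = 4.7e-10), and the related Cyb5r1 rose by 2.40 (SE 0.26, adjusted p = 1.3e-07) and 1.93 (SE 0.26, adjusted p = 5.1e-06).

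Enzymes that supply or use the products moved in part with them. Of 7 tested acyl-CoA synthetases 2 rose and 5 fell in each genotype. Acsl4, which favours arachidonate, rose by 1.22 in Cre (SE 0.14, adjusted p = 3.1e-07) and by 1.04 in liver-Flcn-/- livers (SE 0.14, adjusted p = 5.8e-06), whereas Acsl1, the main long-chain synthetase of liver, fell by 1.61 (SE 0.17, adjusted p = 8.4e-08) and 0.63 (SE 0.16, adjusted p = 0.0032). Of 8 peroxisomal genes of the last step of docosahexaenoic acid synthesis, 4 fell and 0 rose in each genotype. Abcd3, a transporter of the peroxisomal membrane, fell by 1.02 (SE 0.13, adjusted p = 9.8e-07) and 0.89 (SE 0.13, adjusted p = 8.1e-06). Of 9 tested genes that transfer acyl chains to phospholipids or make phosphatidylcholine, 5 rose and 1 fell in Cre livers, and 3 rose and 1 fell in liver-Flcn-/- livers. Lpcat3, which places polyunsaturated chains in phosphatidylcholine, had 106 ± 8.85 CPM in the 5 Cre livers on MCD and 153 ± 10.7 CPM (SDs) in the 6 liver-Flcn-/- livers, a log2 fold change of 0.53 (SE 0.09, adjusted p = 2.8e-04), and its interaction was 0.48 (SE 0.12, adjusted p = 0.019).

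Of 16 transcription regulators of this pathway 2 rose and 10 fell in Cre livers on MCD, and 2 rose and 9 fell in liver-Flcn-/- livers, with medians of −0.36 and −0.35. Srebf1, which encodes SREBP-1, fell by 1.54 in Cre (SE 0.29, adjusted p = 1.2e-04) and by 1.77 in liver-Flcn-/- livers (SE 0.28, adjusted p = 3.3e-05) on the log2 scale. Insig1, a retention protein and target of SREBP, fell by 1.64 (SE 0.23, adjusted p = 3.2e-06) and 1.77 (SE 0.22, adjusted p = 1.5e-06), and Scap, the escort of SREBP, by 1.21 (SE 0.10, adjusted p = 1.5e-09) and 0.88 (SE 0.09, adjusted p = 1.9e-07). In the 2 genotype comparisons and the interaction 0 of the 16 were called by edgeR. Without Cre MCD 3, Nr1h2, a liver X receptor, was called lower in liver-Flcn-/- livers on MCD (−0.25, SE 0.08, adjusted p = 0.044), and Nfyb, a subunit of NF-Y, had a higher response (0.64, SE 0.20, adjusted p = 0.044). Of 12 lipogenic enzymes 11 fell and 0 rose with MCD in Cre livers, and 9 fell and 1 rose in liver-Flcn-/- livers, with medians of −2.22 and −1.41. Acss2, which activates acetate, fell by 3.80 (SE 0.27, adjusted p = 2.9e-10) and 3.44 (SE 0.25, adjusted p = 8.1e-10). Pklr and Acacb were higher in liver-Flcn-/- livers on MCD, by 1.52 (SE 0.21, adjusted p = 3.2e-05) and 1.80 (SE 0.25, adjusted p = 3.6e-05). Of 12 PPAR alpha target genes 5 rose and 1 fell in Cre livers, and 6 rose and 0 fell in liver-Flcn-/- livers. Fgf21, a liver hormone, rose by 4.33 (SE 0.50, adjusted p = 2.7e-07) and 3.50 (SE 0.54, adjusted p = 2.0e-05).

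Markers of hepatocytes fell with MCD. Of 7 such markers, of which Alb was the most abundant, 6 fell in Cre and 7 in liver-Flcn-/- livers, with medians of −0.99 and −0.70. Their summed level was 113701 to 164102 CPM in Cre and 89371 to 130342 CPM in liver-Flcn-/- livers on chow, against 65119 to 100390 and 59974 to 81562 CPM on MCD. The 3 tested neutrophil markers rose in both genotypes. Of 5 cholangiocyte markers 3 rose in Cre livers and 0 were called in liver-Flcn-/- livers, and of 5 endothelial markers 3 and 4 fell. Of 5 tested lymphocyte markers 0 were called in Cre livers and 3 fell in liver-Flcn-/- livers. The 6 skeletal muscle markers rose in Cre livers and were lower in liver-Flcn-/- than in Cre livers on MCD. Without Cre MCD 3, 5 of them passed the filter, of which 4 rose in Cre livers and 0 differed between genotypes on MCD. Of 5 adipocyte markers 0 passed the filter. Of 14 clock genes 2 rose and 2 fell in Cre livers, and 2 rose and 1 fell in liver-Flcn-/- livers. In Cre livers Per1 was 6.67 to 19.8 CPM on chow and 26.7 to 41.6 CPM on MCD, without overlap. In liver-Flcn-/- livers Per1 was 2.10 to 11.3 CPM on chow and 8.44 to 27.9 CPM on MCD, which overlapped. The clock genes together summed to 224 to 800 CPM on chow and 328 to 714 CPM on MCD in Cre livers. Of 8 genes known as higher in female liver 2 fell in each genotype, but their sum moved differently by Xist. In Xist-low livers it was 0.947 to 3.58 CPM in Cre and 1.24 and 13.5 CPM in liver-Flcn-/- livers on chow. On MCD the Xist-low livers held 782 and 1144 CPM in Cre and 752 to 1172 CPM in liver-Flcn-/- mice. In Xist-high livers it was 2654 to 3128 and 1525 to 3421 CPM on chow. On MCD it was 978 to 1479 and 1223 to 1598 CPM, and the latter overlapped. The part of these cells and genes in the values of the 9 enzymes was not tested.

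The genes whose log2 CPM followed each enzyme most closely over the 22 livers, among 12843 genes with a mean of at least 1 CPM, differed from enzyme to enzyme. For Scd1 they were Tmem220 (Pearson r 0.98), Echdc1 (0.97) and Ugt3a2 (0.97), and for Elovl5 they were Rdh11 (0.95), Sc5d (0.95), an enzyme of cholesterol synthesis, and Slc35a1 (0.95). Elovl2 was followed by Fabp1 (0.95), the liver fatty acid-binding protein, Mob3b (0.95) and Slc17a2 (0.95). Elovl3 was followed by the major urinary protein genes Mup14 (0.97) and Mup1 (0.96), which are close copies of one another, and by Hsd3b5 (0.96). For Elovl7 the genes were Pgm2, Gltp and Mfge8 (0.96 each), and for Elovl1 Glg1 (0.93), Lgals3bp (0.93) and Fen1 (0.93). The values were lower for Fads1 (Btnl9 0.89, Heyl 0.86, Six5 0.86), Fads2 (Rps6ka1 0.87, Wee1 0.86, Synj2 0.86) and Scd2 (Hmgn3 0.78, Rab27a 0.77, Serpinh1 0.76). These values share the diet groups and library depth and carry no test.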

How the data were processed

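Total RNA of 22 mouse livers was made into mRNA libraries with ligated unique molecular identifiers and sequenced. Per the labels, the authors used bcl2fastq, Trimmomatic, STAR, HTSeq and GRCm38 and deposited counts of reads per gene, whole numbers without normalization. Tool versions, the strand setting and any collapsing of identifiers are not given in the sources used here. Errors from counting alone would understate the noise, and the SEs given here come from a fit that estimates the spread between livers. Groups came from the sample titles, all columns were mapped (0 were not), and each library counts as 1 mouse. The labels do not give litter or harvest time.

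The 14062 genes whose count averaged 10 or more across libraries were kept, scaled by TMM, fitted as 1 model of 4 groups and tested with the two-sided quasi-likelihood test of edgeR 4.0.16 in R 4.3.3, and p-values were adjusted by Benjamini-Hochberg across those genes in each of 5 comparisons. SEs are the log2 fold change divided by the square root of F. The fit was also run on simulated data, and the outcome of that run is not reported here. Depth was 15276157 to 19417246 counts in Cre livers on chow, 13751347 to 19645473 in liver-Flcn-/- on chow, 18201287 to 21144388 in Cre on MCD and 16616132 to 20706657 in liver-Flcn-/- on MCD. Exon lengths and positions are from GENCODE M21 on GRCm38, and log2 CPM for correlations used a prior count of 2. No 2 libraries of a group were identical (Spearman correlation across genes 0.939 to 0.994).

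The members and gene lists were chosen with earlier results of these data known. The genes named are the 9 members, Flcn, up to 4 genes of each list with the smallest p, and the 3 genes most like each member. Xist-low means under 10 CPM. Alternatives were limma-voom (limma 3.58.1), DESeq2 1.42.0, RLE factors, other filters, fits of only the groups compared, covariates for sex or mapping, the replicate number as a block, leaving out the 5 poorly mapping chow libraries or keeping only those on chow, and leaving out each library. Comparisons within Xist-low and Xist-high livers (a fit of 8 groups), and without the 5 libraries with both Xist and Y-linked counts above 5 CPM, were chosen after seeing the data. Values of some tested genes are not reported.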

Additional observations from a re-analysis of the deposited data

Results flagged for a closer look

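Within single groups 6 of 36 sets of values of the 9 genes held a liver far from the rest by Dixon's criterion. Chance gives about 1 in 20 for independent sets of normally distributed values. The sets here are CPM without a log scale, of related genes in the same livers, so that rate need not apply. FLCN KO MCD 4 was the highest of its 6 livers for Fads1 (902 CPM), Fads2 (1315 CPM) and Elovl5 (396 CPM). Cre Chow 4 was the highest of its 6 livers for Scd1 (24834 CPM) and Elovl5 (1291 CPM). Cre Chow 6 was the highest of its 6 livers for Fads2 (1062 CPM).

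The response of Elovl1 to MCD differed between genotypes by −0.58 on the log2 scale (edgeR adjusted p = 0.019), a call that some of the alternatives lost.

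Y-linked genes, which are not among the 9 enzymes, summed to 10.9 CPM in Cre Chow 2, 27.8 CPM in Cre MCD 1, 26.8 CPM in FLCN KO Chow 2, 11.8 CPM in FLCN KO Chow 4 and 12.1 CPM in FLCN KO MCD 3, all of which hold Xist.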

How the results depend on the processing

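For the log2 fold changes of the 9 genes, leaving out single libraries gave 990 values, of which 930 kept direction and side of the threshold, 14 lost the call, 19 gained it and 27 changed sign. Every comparison was refitted without each of the 22 libraries. The 990 values thus include fits that left both compared groups whole, where little change can arise. Without one library each, the genes called between genotypes on chow (1212 otherwise) ranged from 669 to 1428 and those of the interaction (1242) from 807 to 1422, and of the 9 enzymes 1 to 3 were called on chow, 0 to 2 on MCD and 1 to 2 by the interaction. The values that changed sign ranged, between genotypes on chow, from −0.44 to 0.040 for Scd1, −0.090 to 0.073 for Elovl2, −0.99 to 0.14 for Elovl3 and −0.24 to 0.024 for Elovl5. On MCD they ranged from −0.36 to 1.08 for Scd1, −0.036 to 0.17 for Fads1 and −0.32 to 0.067 for Elovl5, and in the interaction from −0.10 to 1.34 for Scd1, −0.15 to 0.053 for Fads1, −0.0024 to 1.13 for Elovl3 and −0.15 to 0.21 for Elovl5. None of these values was called with all libraries.

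The other alternatives gave 621 values, of which 552 were unchanged in direction and call, 25 lost the call, 16 gained it and 28 changed sign. Between genotypes on chow, of the 9 enzymes 2 were called by DESeq2, 0 by limma-voom, 2 with sex as a covariate and 2 with a term for mapping, and on MCD 0 were called in a fit of only those groups. DESeq2 called 2 interactions. With the term for mapping, Scd2 in Cre livers became −0.34, Elovl3 between genotypes on chow 0.46 and its interaction −0.32. A replicate block lowered the interaction to 552 genes called and 0 of the 9, and with it Elovl2 on chow became 0.037 and the Fads1 interaction 0.043, the Elovl1 interaction was −0.56 (edgeR adjusted p = 0.055) and Scd2 in liver-Flcn-/- livers −0.96 (adjusted p = 0.072). The numbers did not pair the livers, since deviations of same-numbered livers had mean correlations of −0.084, −0.011, 0.061 and 0.129.

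Without the 5 poorly mapping chow libraries, 495 genes were called for FLCN KO against Cre on chow and 783 for the interaction of genotype and diet, with 2 of the 9 called there, and Scd2 in Cre livers became −0.030, Elovl3 on chow 0.995, its interaction −0.86 and the Fads1 interaction 0.0056. With only those libraries on chow, 3932 genes (6328 otherwise) were called for MCD against chow in FLCN KO livers, 415 differed on chow and 195 in the interaction, with 0 of the 9 called on chow, on MCD or in the interaction. Scd2 then became 0.25 with MCD in liver-Flcn-/- livers and −0.030 between genotypes on chow, and the Elovl5 interaction −0.058.

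Within the Xist-low livers, 4043 genes were called for MCD against chow in FLCN KO livers, 549 for FLCN KO against Cre on chow, 1387 for FLCN KO against Cre on MCD (2333 otherwise) and 194 for the interaction of genotype and diet, with 0 of the 9 called on chow or in the interaction. Fads1 in Cre livers became 0.069, and Scd2 0.48 with MCD in liver-Flcn-/- livers and −0.031 on chow. On MCD Scd1 became −0.53, Fads1 −0.024, Elovl3 −0.38 and Elovl5 0.0445, and in the interaction Scd1 became −0.36, Elovl3 −0.20 and Elovl7 0.71. Within the Xist-high livers 611 genes differed on chow and 3 of the 9 were called in the interaction, and Scd2 in Cre livers became −0.060, Elovl3 on chow 0.996, the Fads1 interaction 0.033 and the Elovl3 interaction −0.44. Without the 5 libraries with both Xist and Y-linked counts, 460 genes differed on chow, 1200 on MCD and 83 in the interaction, with 0 of the 9 called on MCD or in the interaction, and Elovl5 on MCD became 0.015 and the Fads1 interaction 0.039. These fits hold fewer livers a group, and other causes of the changes were not tested. Low counts limit Elovl7 on chow, at 2 to 10 counts per Cre liver.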
